A study of Mus musculus with 6 samples.

Results

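The cGAS-STING-TBK1 pathway was described here through 5 genes: Mb21d1, which encodes the DNA sensor cGAS; Tmem173, which encodes the adaptor STING; the kinase genes Tbk1 and Ikbke; and Trex1, which encodes a cytosolic DNA exonuclease. They were found by name among the 51499 loci of the count table, where each gene had a single locus and that of Trex1 was shared with Atrip and Gm42641. All 5 loci were among the 13867 loci that passed the filter on low counts. RNA had been sequenced from SV40-immortalized mouse embryonic fibroblasts (MEFs) in 3 WT and 3 Yme1l-/- cultures. YME1L is a protease of the mitochondrial inner membrane. WT cells were Yme1l fl/fl, with loxP-flanked alleles on both chromosomes, and Yme1l-/- cells were made from such cells with Cre recombinase. Both came from individually expanded clones, all carried SV40 large T antigen, and no treatment is named in the labels. Differences between clones and differences between genotypes therefore cannot be told apart.

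The pathway links DNA in the cytosol to type I interferon. cGAS binds double-stranded DNA and makes the cyclic dinucleotide cGAMP, which binds STING at the endoplasmic reticulum; STING then moves to the Golgi and recruits TBK1 or its relative IKKε, the Ikbke product, which phosphorylate the transcription factor IRF3. TREX1 degrades cytosolic DNA and thereby limits the signal. The pathway acts through protein binding and phosphorylation, which transcript counts do not measure.

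The libraries held 33180867 to 34624075 counted fragments in the 3 WT cultures and Yme1l-/- replicate 1, and 49351107 and 49157459 in Yme1l-/- replicates 2 and 3. Yme1l1, the targeted gene, had 6327, 6292 and 5968 counts in WT and 1327, 1963 and 2067 in Yme1l-/- libraries, a fall to 20.8% of WT. The fibroblast markers Col1a1, Col1a2, Vim, Col3a1, Pdgfra, Pdgfrb and Thy1 summed to between 6078 and 6300 CPM (counts scaled to the effective size of the library) in WT and 4291 to 4517 in Yme1l-/- libraries, but Thy1 had only 4 to 6 counts in WT and 0 in Yme1l-/- libraries. In a bulk sample, fewer cells with a transcript and less transcript per cell cannot be told apart. Counts were scaled with TMM factors, and a call means an adjusted p below 0.05 in the quasi-likelihood test of edgeR, with p-values adjusted (Benjamini-Hochberg) over the 13867 loci. By that rule 67.7% of all loci were called, 33.6% as higher and 34.1% as lower in Yme1l-/- cells, so that a call is the common outcome in this comparison.

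The sequences just upstream of 3 members are shown because their transcripts were called and because the RefSeq promoter table (GRCm38.p6) gives a single entry for each. They run 5′ to 3′ on the minus strand and capitals mark each CG. Each ends at the base before the RefSeq start or before the start of the locus in the count table, whichever lies further upstream, which is the RefSeq start for Tbk1, the locus start for Ikbke and both for Mb21d1. Positions are chr9:78443238-78443487 for Mb21d1, chr10:121586795-121587044 for Tbk1 and chr1:131279607-131279813 for Ikbke.
Mb21d1: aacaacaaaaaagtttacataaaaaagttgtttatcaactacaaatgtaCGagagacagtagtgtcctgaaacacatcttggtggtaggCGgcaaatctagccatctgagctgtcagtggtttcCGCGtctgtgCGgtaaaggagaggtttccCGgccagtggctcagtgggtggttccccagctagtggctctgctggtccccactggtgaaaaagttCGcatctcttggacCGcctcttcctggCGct
Tbk1: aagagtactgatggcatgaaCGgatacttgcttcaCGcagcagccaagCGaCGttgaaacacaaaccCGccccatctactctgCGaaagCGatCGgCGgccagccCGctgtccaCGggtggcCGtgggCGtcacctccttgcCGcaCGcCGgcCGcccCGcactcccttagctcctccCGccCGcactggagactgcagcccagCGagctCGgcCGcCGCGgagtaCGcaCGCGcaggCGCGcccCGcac
Ikbke: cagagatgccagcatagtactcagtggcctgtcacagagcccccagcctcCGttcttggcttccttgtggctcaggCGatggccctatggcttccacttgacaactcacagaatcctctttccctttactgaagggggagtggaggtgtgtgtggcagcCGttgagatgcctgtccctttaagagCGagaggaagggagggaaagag
The 300-base RefSeq window that holds each stretch had 16 CG in Mb21d1, 37 in Tbk1 and 4 in Ikbke, against a median of 7 over all 32851 windows of the table. Of all windows, 67.0% had fewer CG than that of Mb21d1, 94.4% fewer than that of Tbk1 and 31.4% fewer than that of Ikbke. Tbk1 thus lies in the CG-rich tail, and Ikbke below the middle.

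The same 3 windows and both entries of Trex1 were searched on both strands for 3 motifs, and 4 of the 5 members had an entry. The interferon-stimulated response element core (GAAA, any 2 bases, GAAA) was in none of these windows and in 3.44% of all. The gamma-activated site (TTC, any 3 bases, GAA) was in none and in 8.30% of all. The NF-κB type site (GGGA, any base, TTTCC) was in none and in 0.411% of all. These counts say only that the letters are not in these windows.

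Of the 5 members, 3 were called higher in Yme1l-/- cells (Tmem173, Tbk1 and Ikbke), 1 was called lower (Mb21d1) and Trex1 was not called, where 33.6% of all loci were higher and 34.1% were lower. The members had a median log2 fold change of 0.40, against -0.004 over all tested loci. In the 3 genes called higher, every Yme1l-/- library lay above every WT library, which was the case for 35.9% of all tested loci. None of the 5 reached a 2-fold change together with a call, which 17.7% of all loci did.

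The sensor transcript was lower against all loci, but not relative to its chromosome. The Mb21d1 locus, at chr9:78427507-78443237 (GRCm38), had 45.0, 45.5 and 47.1 CPM in WT and 37.9, 38.5 and 40.1 CPM in Yme1l-/- libraries. The groups did not overlap, and each group spanned little more than 2 CPM. The means were 45.9 ± 1.12 and 38.8 ± 1.17 CPM (SD, n = 3 each), a log2 fold change of -0.24 ± 0.05 (SE; edgeR adjusted p = 0.00105), so that Yme1l-/- cells held 84.7% of the WT level. The 95% interval ran from -0.35 to -0.13. Relative to the chromosome 9 median the value was 0.12 (edgeR adjusted p = 0.0519, not called), and against the 50 nearest loci 0.22, called higher. The locus is wider than the gene, which GENCODE M21 places at chr9:78430526-78443237. It also spans the pseudogene Gm8093 on the opposite strand, which had at most 3 counts in any library.

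The adaptor transcript moved the other way and had the largest change of the 5. Tmem173 lies at chr18:35733678-35740554. It had 19.0, 18.8 and 17.7 CPM in WT and 32.9, 35.2 and 37.2 CPM in Yme1l-/- libraries. The lowest Yme1l-/- library lay well above the highest WT library. Means were 18.5 ± 0.696 and 35.1 ± 2.15 CPM, a 1.90-fold rise with a log2 fold change of 0.92 ± 0.06 (edgeR adjusted p = 2.4e-07). Leaving out each library in turn gave 0.88 to 0.97. STING is abundant in macrophages, and the macrophage and haematopoietic markers Ptprc, Adgre1, Csf1r, Cd68, Itgam and Aif1 summed to 1.86 to 2.08 CPM in WT and 4.03 to 4.73 CPM in Yme1l-/- libraries. Of these markers Adgre1 was at 0 in every library, Ptprc and Aif1 had at most 1 count, and Cd68 made up most of the sum. Cd68 was the 1 tested marker of this list and was called higher (log2 fold change 1.04 ± 0.14, edgeR adjusted p = 4.8e-05). Csf1r had 2 to 5 counts in WT and 11 to 20 in Yme1l-/- libraries, and Itgam 2 to 4 and 9 to 29 counts. The part of these markers in the Tmem173 result was not tested.

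**Figure D1:**
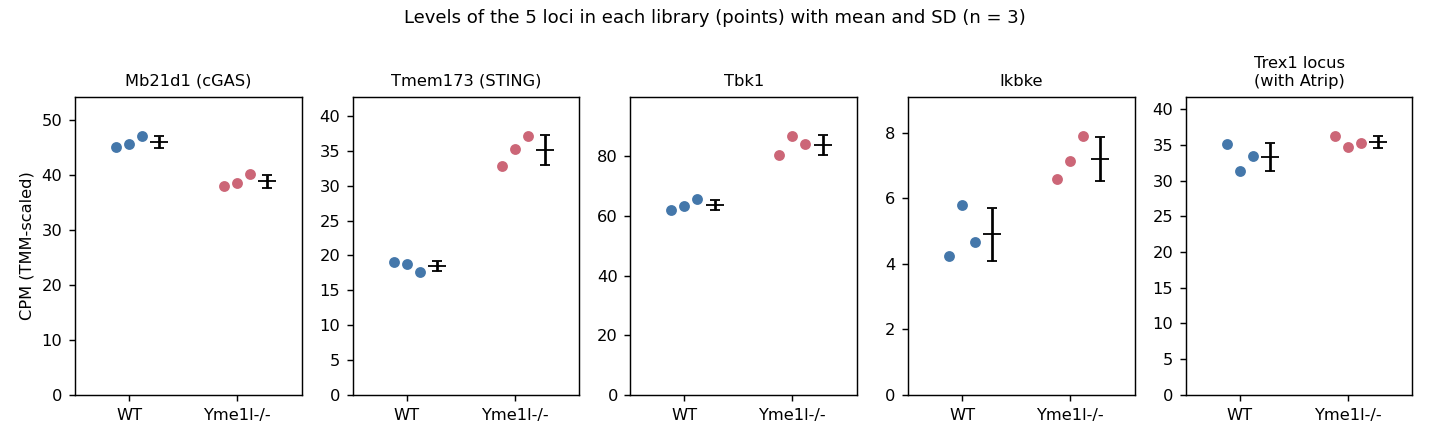
TMM-scaled CPM (vertical axis from 0) of the 5 loci in the 3 WT and 3 Yme1l-/- libraries. Points are libraries and the black marks give the mean and SD (n = 3). Groups are apart for Mb21d1 (lower in Yme1l-/-), Tmem173, Tbk1 and Ikbke (higher), and overlap for the Trex1 locus.

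Within each library the ratio of Tmem173 to Mb21d1 counts, which does not depend on library scaling, was 0.423, 0.414 and 0.376 in WT and 0.868, 0.915 and 0.926 in Yme1l-/- libraries. STING transcript counts thus came close to those of the sensor transcript. The mean ratio differed 2.23-fold, while the WT libraries differed among themselves by 1.12-fold. A two-sided exact permutation test gave p = 0.10, the smallest value that 3 against 3 allows (adjusted p = 0.15 over 3 ratios).

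Both kinase transcripts rose against all loci, and Ikbke also relative to its chromosome. Tbk1, the kinase found in most cell types, lies at chr10:121546455-121586787 and had 61.9, 63.4 and 65.5 CPM in WT and 80.3, 86.9 and 83.9 CPM in Yme1l-/- libraries. The groups did not overlap. Means were 63.6 ± 1.81 and 83.7 ± 3.28 CPM, a log2 fold change of 0.40 ± 0.05 (edgeR adjusted p = 2.2e-05) or 1.32-fold. Relative to the chromosome 10 median it was 0.10 (edgeR adjusted p = 0.0871) and not called.

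Ikbke, the inducible relative, lies at chr1:131254343-131279606 and was the scarcest member. Its counts were 140, 190 and 152 in WT and 230, 359 and 403 in Yme1l-/- libraries, which gave 4.23, 5.80 and 4.66 against 6.57, 7.12 and 7.91 CPM. WT replicate 2 was the highest WT library, and still below all 3 Yme1l-/- libraries. Means were 4.90 ± 0.814 and 7.20 ± 0.672 CPM, a log2 fold change of 0.56 ± 0.13 (edgeR adjusted p = 0.00319) or 1.47-fold. At 140 counts, counting error alone (95% exact Poisson interval) spans -15.9% to 18.0%, and leaving out single libraries gave log2 fold changes of 0.46 to 0.70. The antisense genes Gm28914 and Gm28913 inside Ikbke had 0 counts in every library.

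The balance of the kinases was less clear than either level. The ratio of Ikbke to Tbk1 counts was 0.0683, 0.0915 and 0.0710 in WT and 0.0818, 0.0819 and 0.0943 in Yme1l-/- libraries. These ranges overlap. The mean log2 ratio was higher by 0.17 in Yme1l-/- libraries (two-sided exact permutation p = 0.30, adjusted p = 0.30), with 0.30 when WT replicate 2 was left out, 0.09 without WT replicate 1 and 0.10 without Yme1l-/- replicate 3. With 3 against 3 libraries the smallest p this test allows is 0.10, so it could not detect a difference in the balance.

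The nuclease locus was close to flat. The Trex1 locus at chr9:109057933-109074124 had 35.1, 31.3 and 33.4 CPM in WT and 36.3, 34.7 and 35.3 CPM in Yme1l-/- libraries. The groups overlap, since WT replicate 1 lay above Yme1l-/- replicate 2. Means were 33.3 ± 1.93 and 35.4 ± 0.82 CPM, a log2 fold change of 0.09 ± 0.06 (edgeR adjusted p = 0.189) with a 95% interval from -0.04 to 0.21. The locus counts Trex1 and Atrip, a partner of the checkpoint kinase ATR, together: in GENCODE M21 Trex1 occupies chr9:109057933-109059734 at the 3′ end of Atrip on the same strand. The counts therefore do not say what either gene did alone. The authors' combined FPKM values for the locus, which carry no replicate error, were 16.3 in WT and 22.4 in Yme1l-/- cells, further apart than the counts.

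The ratio of Mb21d1 to the Trex1 locus was 1.28, 1.45 and 1.41 in WT and 1.04, 1.11 and 1.14 in Yme1l-/- libraries. All 3 Yme1l-/- values lay below all 3 WT values. The mean log2 ratio differed by -0.33 (two-sided exact permutation p = 0.10, the smallest possible, adjusted p = 0.15).

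Levels were set side by side per length, as TMM-scaled CPM per kilobase of the union of annotated exons. In WT, Tbk1 was highest with 16.3 ± 0.464, followed by Mb21d1 with 11.1 ± 0.271, Tmem173 with 6.76 ± 0.254, the Trex1 locus with 4.65 ± 0.270 and Ikbke with 0.543 ± 0.0903 CPM per kilobase (mean ± SD, n = 3). No neighbours in this order overlapped between WT libraries. In Yme1l-/- cells Tbk1 stood at 21.4 ± 0.840, Tmem173 at 12.8 ± 0.785, Mb21d1 at 9.41 ± 0.283, the Trex1 locus at 4.95 ± 0.115 and Ikbke at 0.798 ± 0.0746, again with no overlap between neighbours. The sensor and the adaptor changed places between the genotypes. The authors' combined FPKM values gave the same change of places, from 12.7 for Mb21d1 and 8.44 for Tmem173 in WT to 10.7 and 16.0 in Yme1l-/- cells. They placed the Trex1 locus above Mb21d1 in both genotypes, unlike the per-kilobase counts.

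Whole chromosomes differed between the genotypes, with median log2 fold changes per chromosome from -0.44 to 0.59, so each member was also set against its own chromosome. The medians were -0.36 on chromosome 9 (Mb21d1 and Trex1), -0.21 on chromosome 18 (Tmem173), 0.30 on chromosome 10 (Tbk1) and -0.15 on chromosome 1 (Ikbke). On each of these chromosomes the medians of the 3 Yme1l-/- libraries, each against the WT mean, lay within 0.03 of each other. Relative to the medians 62.8% of 13802 loci were called, 31.2% higher and 31.6% lower. Of the loci called at first, 20.2% lost the call and 2.57% turned direction. The plot of members on their chromosomes shows where each gene lies.

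**Figure D2:**
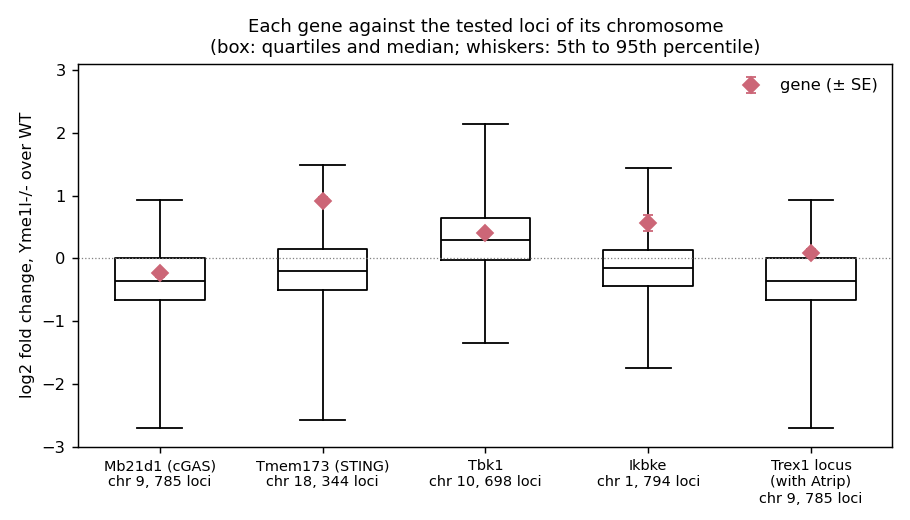
Log2 fold change (Yme1l-/- over WT, vertical axis) of each member (diamond, ± SE) beside the tested loci of its chromosome (box for quartiles and median, whiskers from the 5th to the 95th percentile). Mb21d1 and Tbk1 lie inside the quartiles of their chromosomes, whereas Tmem173, Ikbke and the Trex1 locus lie above the upper quartile.

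Tmem173 and Ikbke stood further out when set against their chromosomes. Tmem173 exceeded its chromosome median by 1.13 ± 0.06 (edgeR adjusted p = 5.8e-08) and lay above 91.3% of 344 loci there. Ikbke exceeded its median by 0.71 ± 0.14 (edgeR adjusted p = 0.000788) and lay above 87.3% of 794 loci. The calls of both held in all 14 fits of this comparison, with values of 1.08 to 1.17 and 0.60 to 0.86.

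Mb21d1 and Tbk1 were not called relative to their chromosome medians. The fall of Mb21d1 was smaller than that of the median chromosome 9 locus, and the gene lay above 60.4% of 785 loci. Relative to the median the value was 0.12 ± 0.05 (95% interval 0.01 to 0.23, edgeR adjusted p = 0.0519), of the opposite sign to the first value. Over 14 fits it ran from 0.09 to 0.22 and was called in 2. Tbk1 lay above 58.5% of 698 chromosome 10 loci, and relative to the median its value was 0.10 ± 0.05 (95% interval -0.004 to 0.20, edgeR adjusted p = 0.0871). Over 14 fits it ran from 0.06 to 0.23 and was called in 3, one of them the fit without Yme1l-/- replicate 1 (0.12, edgeR adjusted p = 0.0445).

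The Trex1 locus went from no call to a call. It exceeded the chromosome 9 median by 0.45 ± 0.06 (edgeR adjusted p = 4.0e-05), lay above 79.5% of the 785 loci, and was called in all 14 fits with values of 0.40 to 0.48. Relative to chromosome medians, then, 3 of the 5 members were called higher and none lower, beside 31.2% and 31.6% of all loci. Those called were Tmem173, Ikbke and the shared Trex1 locus, while Mb21d1 and Tbk1 were not called.

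A nearer reference gave a fuller set of calls. The median of the 50 nearest tested loci was -0.46 around Mb21d1, -0.16 around Tmem173, 0.17 around Tbk1, -0.27 around Ikbke and -0.31 around the Trex1 locus. Against these, all 5 members were called higher, where 30.3% of all loci were. Values were 0.22 ± 0.05 for Mb21d1 (edgeR adjusted p = 0.00217), 1.08 ± 0.06 for Tmem173, 0.23 ± 0.05 for Tbk1 (edgeR adjusted p = 0.00138), 0.83 ± 0.14 for Ikbke and 0.40 ± 0.06 for the Trex1 locus. Of the members, only Tmem173 and Ikbke were therefore called higher with each of the 3 references. All 3 use the same counts, and the share of all loci called higher with each of them was not worked out. The 50 loci spanned 12.6 Mb around Mb21d1 and 10.1 Mb around Tbk1, but 2.60 Mb around Tmem173 and 2.93 Mb around the Trex1 locus.

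**Figure D3:**
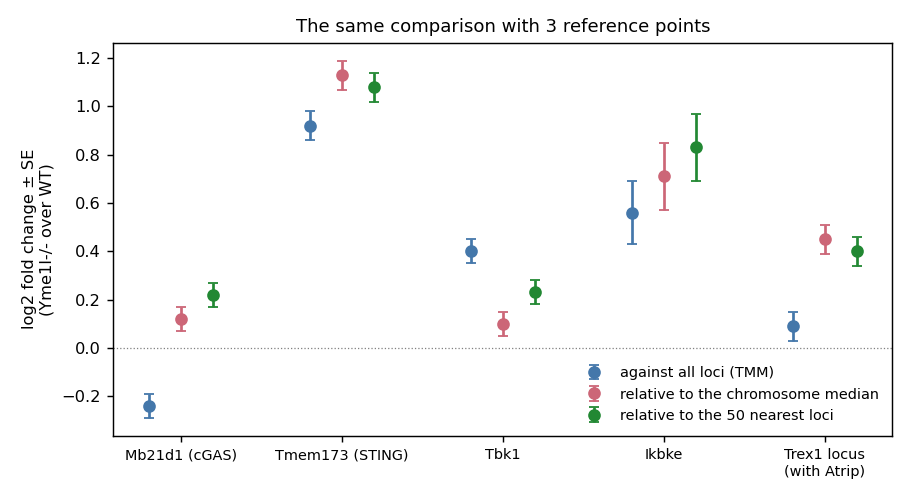
Log2 fold change ± SE (Yme1l-/- over WT, vertical axis) of the 5 members with 3 references: TMM scaling over all loci, the chromosome median and the median of the 50 nearest loci. Mb21d1 goes from -0.24 to 0.12 and 0.22, and Tbk1 from 0.40 to 0.10 and 0.23, while Tmem173 stays between 0.92 and 1.13.

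**Figure D4:**
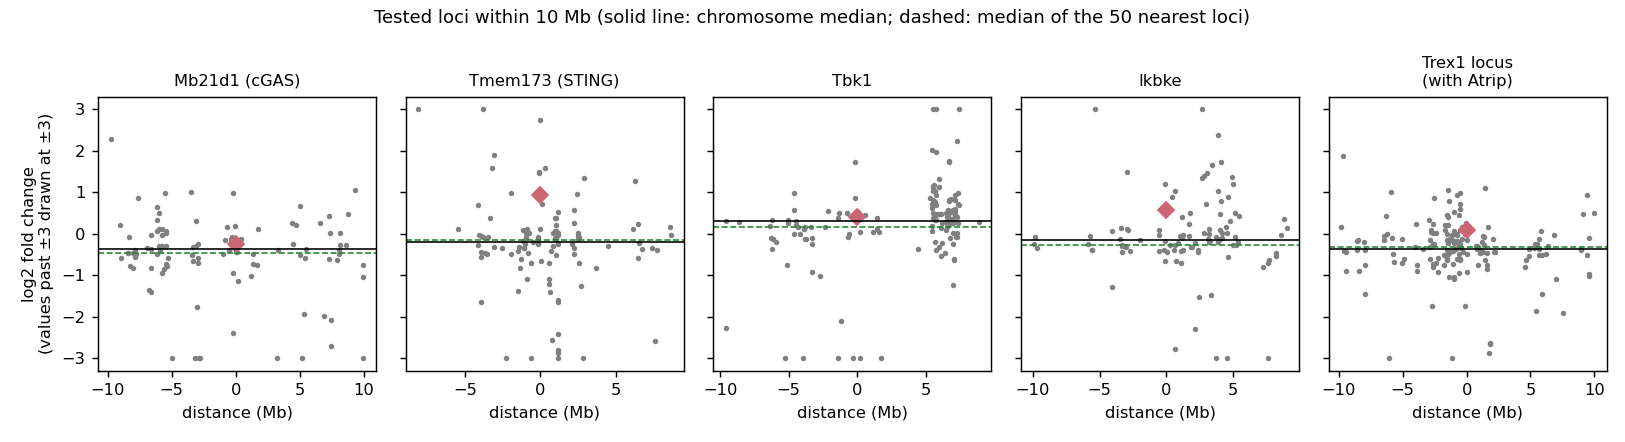
Log2 fold change of tested loci within 10 Mb of each member (grey points, horizontal axis in Mb from the member, values past 3 in either direction drawn at 3) with the member as a diamond. The solid line is the chromosome median and the dashed line the median of the 50 nearest loci. Of these 50, 46 lay below Tmem173, 45 below Ikbke, 39 below the Trex1 locus, 34 below Mb21d1 and 31 below Tbk1.

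The loci whose profiles over the 6 libraries were most like those of the members lay on other chromosomes. Likeness was the Euclidean distance between centred log2 CPM profiles, among 8487 loci with a mean of at least 10 CPM. For Mb21d1 the nearest were Krit1 and Brd3 (both at 0.032), for Tmem173 Flt1 (0.095) and Acsf2 (0.097), and for Tbk1 Gtf3c5 (0.048) and Ipo8 (0.052). For Ikbke they were Gxylt2 (0.136) and Arrdc3 (0.139), and for the Trex1 locus Nudc-ps1 (0.049) and Cdc42ep4 (0.051). With 6 libraries in 2 groups these distances mostly reflect the size of the difference between the genotypes.

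The members were then set beside 42 other genes of the pathway, of which 41 were tested. In this wider list 11 genes were called higher, 20 lower and 10 not, with a median log2 fold change of -0.11 against -0.004 over all loci. The share called was 75.6%, beside 67.7% of all loci, of which 33.6% were higher and 34.1% lower. Relative to chromosome medians 13 were called higher, 15 lower and 13 not, with a median of 0.00. With this reference 68.3% were called, beside 62.8% of all loci (31.2% higher and 31.6% lower). Calls were lost by 5 genes, gained by 2 and turned by 1. Of the 41, 9 were called with at least a 2-fold change, beside 17.7% of all loci.

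**Figure D5:**
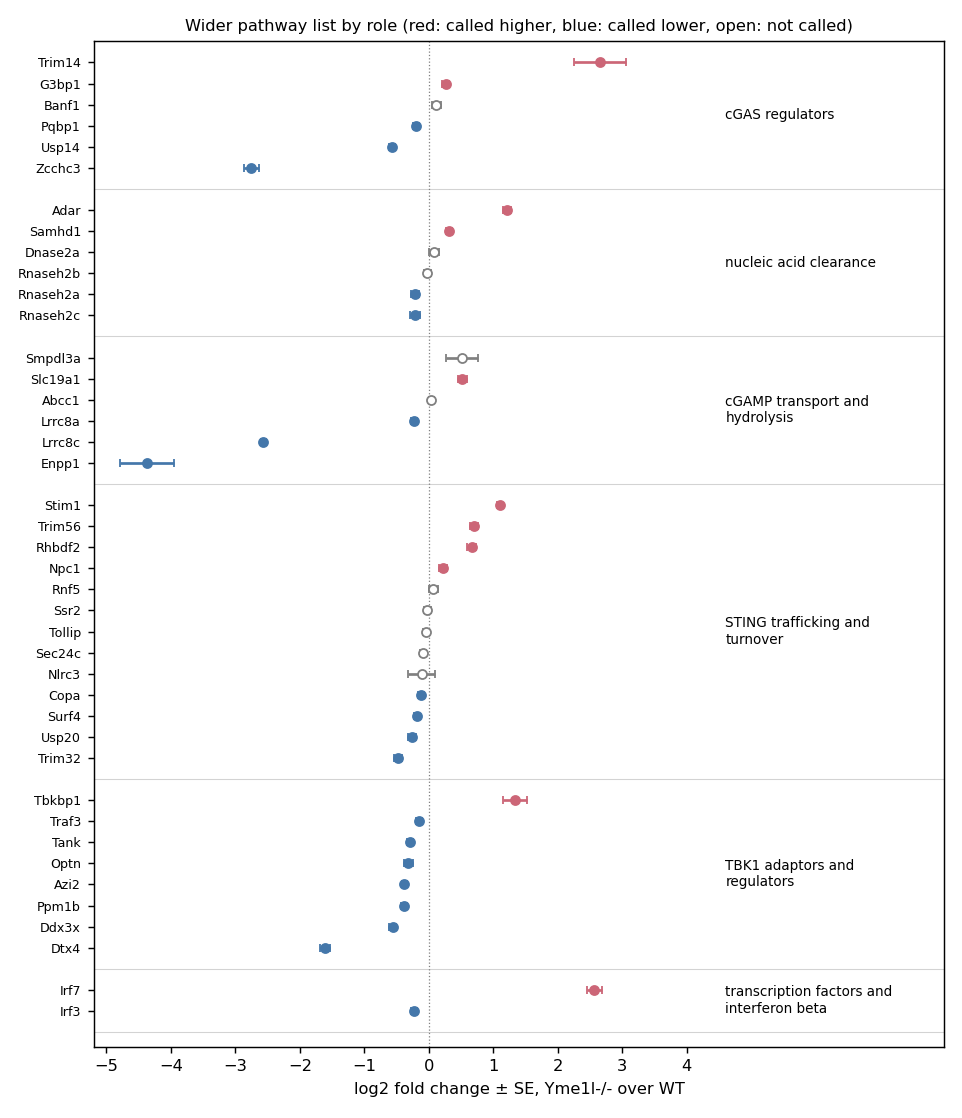
Log2 fold change ± SE (horizontal axis, Yme1l-/- over WT) of the 41 tested genes of the wider list, grouped by role. Filled red points were called higher, filled blue points lower and open points not called. The largest values are those of Enpp1 and Zcchc3 among the falls and of Trim14 and Irf7 among the rises.

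Among 6 regulators of cGAS, 2 were called higher and 3 lower, beside 33.6% and 34.1% of all loci. Zcchc3, a cofactor of DNA sensing by cGAS, fell from 11.5 ± 0.261 to 1.69 ± 0.257 CPM (log2 fold change -2.75 ± 0.12, edgeR adjusted p = 7.2e-09). Trim14, which shields cGAS from degradation together with the deubiquitinase Usp14, rose from 3, 10 and 3 counts to 33, 48 and 62 (2.66 ± 0.40, edgeR adjusted p = 0.000111). WT replicate 2 held most of its WT counts, and without that library the log2 fold change was 3.47, in a range of 2.37 to 3.47 over single libraries left out. Usp14 itself fell by 0.57 on the log2 scale. Banf1, which competes with cGAS for DNA, had the smallest value of the group (0.12 ± 0.07, edgeR adjusted p = 0.150). Without single libraries it ran from 0.06 to 0.19 and was called without WT replicate 1 (0.19, edgeR adjusted p = 0.0260). Relative to its chromosome median it was 0.00. G3bp1, a stress granule protein that aids DNA binding by cGAS, was called higher (0.26), and the cofactor gene Pqbp1 was called lower (-0.20). Both lost the call relative to their chromosome medians, at -0.09 and 0.01. That of G3bp1 was called lower without Yme1l-/- replicate 1 (-0.12, edgeR adjusted p = 0.0440). Against its 50 nearest loci G3bp1 turned and was called lower, at -0.42 ± 0.05 (edgeR adjusted p = 1.9e-05).

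Of 6 genes that clear or modify nucleic acids, as TREX1 does, 2 were called higher and 2 lower, a share of 66.7% called beside 67.7% of all loci. Relative to chromosome medians 4 were called higher and 1 lower, beside 31.2% and 31.6% of all loci. Adar, the double-stranded RNA editor, rose from 47.5 ± 1.66 to 110 ± 8.73 CPM (log2 fold change 1.21 ± 0.06, edgeR adjusted p = 1.9e-08). Samhd1, a dNTP hydrolase, rose by 0.31 ± 0.05 (edgeR adjusted p = 0.000318). Rnaseh2a, a subunit of ribonuclease H2 whose locus is merged with another gene, was called lower at -0.21 ± 0.06 and not relative to its chromosome median, at 0.11 (0.04 without Yme1l-/- replicate 1). Against its 50 nearest loci it was called higher, at 0.20 ± 0.06 (edgeR adjusted p = 0.0134). Rnaseh2b, another subunit, had the smallest value, -0.02 ± 0.05 (edgeR adjusted p = 0.767), but was called higher relative to its chromosome median, at 0.15 (edgeR adjusted p = 0.0234), and to its 50 nearest loci, at 0.13 (edgeR adjusted p = 0.0406).

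Among 6 genes for the transport and breakdown of cGAMP, 1 was called higher and 3 lower, both against all loci and relative to chromosome medians. The share called, 66.7%, was close to the 67.7% and 62.8% of all loci called with these references. Of the 3 called lower, 1 lies in a locus that joins several genes, so that its call cannot be assigned to a single gene. Enpp1, the extracellular cGAMP hydrolase, had 32.7, 69.4 and 39.4 CPM in WT and 1.91, 2.26 and 2.59 CPM in Yme1l-/- libraries. WT replicate 2 stood apart from the other two WT libraries, and without single libraries the log2 fold change of -4.37 ± 0.42 (edgeR adjusted p = 0.000561) ran from -4.58 to -3.98. Lrrc8c, a subunit of the volume-regulated anion channel that can carry cGAMP, had 256 to 261 CPM in WT and 42.2 to 44.9 CPM in Yme1l-/- libraries (-2.57 ± 0.04, edgeR adjusted p = 5.4e-12). Slc19a1, a folate carrier that can import cyclic dinucleotides, was called higher at 0.52 ± 0.07 (edgeR adjusted p = 2.9e-05) and at 0.23 ± 0.07 relative to its chromosome median, but not against its 50 nearest loci, at 0.06 ± 0.07 (edgeR adjusted p = 0.412). Abcc1, an exporter, had the smallest value (0.04 ± 0.04, edgeR adjusted p = 0.369).

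Of 13 genes for the trafficking and turnover of STING, 4 were called higher and 4 lower, a share of 61.5% beside 67.7% of all loci. Stim1, which holds STING at the endoplasmic reticulum, rose from 31.6 ± 0.400 to 67.7 ± 0.253 CPM (log2 fold change 1.10 ± 0.04, edgeR adjusted p = 3.0e-09). The ubiquitin ligase gene Trim56 rose by 0.70 ± 0.06 and Rhbdf2, which encodes the trafficking factor iRhom2, by 0.67 ± 0.07. Ssr2 (also called TRAPβ), part of the translocon-associated complex, had the smallest value, -0.02 ± 0.06 (edgeR adjusted p = 0.771). Copa, a coatomer subunit that returns STING to the endoplasmic reticulum, was called lower at -0.12 ± 0.04 (edgeR adjusted p = 0.0260). That call was lost without WT replicate 2 or 3 or Yme1l-/- replicate 3 (-0.13, -0.10 and -0.10), with upper-quartile scaling (-0.06) and with a looser count filter (-0.12, edgeR adjusted p = 0.0502). Relative to its chromosome median Copa (0.04) was not called, whereas against its 50 nearest loci it was called lower at -0.12 (edgeR adjusted p = 0.0322). Relative to chromosome medians the group had 4 genes called higher and 3 lower, beside 31.2% and 31.6% of all loci.

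Of 8 adaptors and regulators of TBK1, 1 was called higher and 7 lower, beside 33.6% and 34.1% of all loci. Dtx4, a ligase subunit that targets TBK1 for degradation, fell from 25.4 ± 2.17 to 8.34 ± 0.530 CPM (log2 fold change -1.61 ± 0.08, edgeR adjusted p = 2.2e-08). Tbkbp1, an adaptor of TBK1, rose from 0.812 ± 0.0953 to 2.07 ± 0.151 CPM (1.34 ± 0.19, edgeR adjusted p = 6.8e-05), at 23 to 29 counts in WT libraries. Ddx3x, a helicase that TBK1 binds, fell by 0.56 on the log2 scale. The adaptor gene Azi2 was called lower at -0.38 ± 0.04 and had -0.02 relative to its chromosome median, where it was not called. Traf3, a ubiquitin ligase, turned from -0.15 ± 0.05 (edgeR adjusted p = 0.0218) to 0.29 ± 0.05 relative to its chromosome median (edgeR adjusted p = 0.000403). Its first call was lost without WT replicate 2 or 3 or Yme1l-/- replicate 1 or 3, at -0.15, -0.14, -0.11 and -0.15, and with upper-quartile scaling, at -0.09. Relative to chromosome medians 2 of the 8 were called higher and 5 lower, beside 31.2% and 31.6% of all loci.

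Downstream of the kinases, the 2 tested transcription factor genes moved in opposite directions. Irf3, the constitutive target of TBK1, had 48.1 ± 1.54 CPM in WT and 41.1 ± 1.31 CPM in Yme1l-/- cells (log2 fold change -0.23 ± 0.05, edgeR adjusted p = 0.00160). Irf7, which is itself induced by interferon, had 4.80, 6.57 and 4.69 CPM in WT and 30.2, 31.7 and 33.4 CPM in Yme1l-/- libraries. This was a 5.93-fold rise (2.57 ± 0.11, edgeR adjusted p = 6.3e-09), larger in log2 terms than that of any member. Both calls held relative to their chromosome medians. Ifnb1, the interferon beta gene, had 0, 1 and 0 counts in WT and 0 in each Yme1l-/- library and was not tested. A count of 0 in a library allows up to 3 counts, so that a difference in Ifnb1 within that range was not detectable at this depth. No library held more than 1 count.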

How the data were processed

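The authors aligned paired-end reads of stranded poly(A) libraries to GRCm38 (HISAT2 2.0.4), assembled them (StringTie 1.3.3) and ran Cuffdiff 2.2.1, per the labels' processing notes and the study's methods. The deposited table of raw counts gives whole fragments per locus, and how they were counted, strand included, is not given in the sources used here. The deposited FPKM values are the authors' combined value per genotype. Columns of log2 ratios, test statistics, p and q values hold the authors' comparison and were not used.

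Groups were taken from the labels, with 3 cultures each. Nothing says that they differ by more than the culture, so p-values measure the spread between these cultures. The smallest chi-square per degree of freedom between libraries of a genotype was 7.91, so none were treated as duplicates. Loci passing filterByExpr (minimum count 10) were fitted with edgeR 4.0.16 (R 4.3.3, quasi-likelihood, TMM, genotype as the only term), and the biological coefficient of variation was 8.47%. For the relative tests, each gene's offset was shifted by the median log2 fold change of its chromosome, or of its 50 nearest loci, leaving out 65 loci off the 20 chromosomes or without a single position, and p-values were adjusted again over all loci. The medians were treated as known. The code was tested on simulated data. Ratios within libraries were compared with exact permutation tests (scipy 1.17.1). Intervals are 95% and those on counts cover counting error only.

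Alternatives were RLE and upper-quartile scaling, DESeq2 1.42.0, a looser and a stricter count filter, a replicate block and leaving out each library. Named in the wider list were the 3 largest and the smallest changes of each role and calls lost or turned relative to chromosome medians; likewise the 2 loci nearest in profile to each member (0.5 added to counts before the log2, unnamed and predicted genes left out). The members, lists and tests were chosen with earlier results of these data known. No alternative was added later. Of the wider list, 2 genes are not reported here and are left out of its counts.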

Additional observations from a re-analysis of the deposited data

How the results depend on the processing

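The calls of Tmem173, Ikbke and Tbk1 as higher and of Mb21d1 as lower held in all 13 fits against all loci. Upper-quartile scaling moved the median of all loci to 0.055 and the share of calls that were higher from 49.6% to 55.1%; under it Trex1 was called at 0.15 (edgeR adjusted p = 0.0368). Whether replicate numbers pair the cultures is not given. Over 12005 loci, deviations of same-numbered libraries correlated at 0.16, -0.163 and 0.027, with no common sign, which does not settle it. A replicate block gave 9794 calls in place of 9387, and relative to chromosome medians it called Mb21d1 at 0.12 (edgeR adjusted p = 0.0344) and Tbk1 at 0.10 (edgeR adjusted p = 0.0384), so that 5 members in place of 3 were higher. The medians of the 50 nearest loci likewise gave 5, with Mb21d1 at 0.22 and Tbk1 at 0.23. Leaving out each library gave 0.06 to 0.12 for Tbk1 relative to its chromosome median, 0.09 to 0.12 for Mb21d1 and, against all loci, 0.04 to 0.13 for Trex1. With the 50 nearest loci G3bp1 turned from its first call of 0.26 to -0.42, Pqbp1 was at -0.04, Copa at -0.12 and Azi2 at 0.06. With upper-quartile scaling Rnaseh2b and Ssr2 were both at 0.04 and Banf1 was called at 0.18, as it was with the replicate block (0.12, edgeR adjusted p = 0.0102). That scaling also called Abcc1 (0.10, edgeR adjusted p = 0.0416) and took the calls of Copa (-0.06, edgeR adjusted p = 0.235) and Traf3 (-0.09, edgeR adjusted p = 0.134). Relative to chromosome medians the block also called Rnaseh2a higher (0.11, edgeR adjusted p = 0.0443) and G3bp1 lower (-0.10, edgeR adjusted p = 0.0281). With the looser count filter Copa lost its call (edgeR adjusted p = 0.0502), and relative to chromosome medians Copa was at -0.00161 and G3bp1 was called lower at -0.15 (edgeR adjusted p = 0.0163). Leaving out single libraries gave -0.02 to 0.04 for Pqbp1 (relative) and -0.06 to 0.03 for Ssr2. The cause of these changes was not tested. At 0 or 1 count per library, Ifnb1 could not be tested at this depth.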

Other observations

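The lists for cell types that a fibroblast culture should lack were low throughout. Endothelial markers (Pecam1, Cdh5, Kdr and Tek) summed to 0.889 to 1.43 CPM in WT and 1.67 to 2.00 CPM in Yme1l-/- libraries, with Kdr called higher (log2 fold change 0.72 ± 0.22, edgeR adjusted p = 0.0132). Epithelial markers (Epcam, Cdh1, Krt5 and Krt14) summed to 1.62 to 1.87 CPM in WT and 0.179 to 0.286 CPM in Yme1l-/- libraries, with Epcam called lower (-3.83 ± 0.33, edgeR adjusted p = 1.5e-06). Among fibroblast markers Col3a1 fell by 2.48, Vim by 1.33, Col1a2 by 0.68 and Pdgfrb by 0.33 on the log2 scale, all called lower. Col1a1 rose by 0.43 and was called higher, and Pdgfra was not called. Col3a1 had 2858, 9860 and 2974 counts in WT, where WT replicate 2 again stood apart as it did for Enpp1. In Yme1l-/- libraries it had 1035, 1460 and 1397 counts. The part of these markers in the values of the members was not tested.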
